A study of Mus musculus with 96 samples.

Results

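The genes described here are 38 genes whose transcripts are known to peak as cells enter and pass through S phase. The rule lists them by name and uses no measured value, but the list was drawn up with earlier results of these data known. All 38 were found among the 36205 gene rows of the count table. RNA was read from single wild-type mouse embryonic stem (ES) cells of the E14 line, whose background is given as C57BL/6 in the labels, cultured in medium with serum and leukaemia inhibitory factor (serum/LIF). The study measured RNA and DNA methylation in the same cells, and the 61 serum/LIF cells analysed are those that passed its quality checks for both. Of the wells listed, 76 held serum/LIF cells, 16 held cells in 2i medium and 4 held no cell; the last 2 kinds were not analysed here. There is therefore 1 group, with no treatment and no added allele, and each comparison is between cells.

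Before S phase, MCM helicase rings are loaded onto DNA with the help of Cdc6, and geminin blocks further loading once S phase has begun. Cdc45 and the GINS complex then turn the rings into active helicases, and primase, the polymerases and the sliding clamp copy the opened strands while nucleotides and histones are made alongside. Transcription factors of the E2F family switch on many of these genes together at the start of S phase. Cultured mouse ES cells are known for short gap phases, so that many cells of a growing culture are in S phase.

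E2F factors bind a short sequence that is often found just before the start of such genes, so these regions are shown first. The RefSeq table of promoters (build GRCm38.p6) held an entry for 28 of the 38 genes, from 250 bases before the annotated start to 50 bases after it. The motif searched was TTTCCCGC, TTTCGCGC, TTTGGCGC or TTTGCCGC on either strand, and matches that overlap each other were each kept. The 250 bases before the start of 4 genes are printed with the matches in capitals, 5′ to 3′ on the strand of the gene. Mcm5 (chr8:75109259-75109508, plus strand) and Mcm6 (chr1:128359706-128359955, minus strand) code for subunits of the MCM helicase and each hold a pair of overlapping matches that face each other. Cdc6 (chr11:98907901-98908150, plus strand), the loader of the helicase, and Pola1 (chrX:93632156-93632405, minus strand), the catalytic subunit of DNA polymerase alpha, hold 1 match each. In the GENCODE M21 annotation Cdc6 starts at 98907801, so its window lies before the RefSeq start but inside the GENCODE gene.
Mcm5: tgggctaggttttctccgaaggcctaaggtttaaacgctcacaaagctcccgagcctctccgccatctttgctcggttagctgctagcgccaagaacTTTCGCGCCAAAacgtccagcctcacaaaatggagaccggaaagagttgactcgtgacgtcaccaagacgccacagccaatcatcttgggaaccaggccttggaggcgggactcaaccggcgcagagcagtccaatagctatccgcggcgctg
Mcm6: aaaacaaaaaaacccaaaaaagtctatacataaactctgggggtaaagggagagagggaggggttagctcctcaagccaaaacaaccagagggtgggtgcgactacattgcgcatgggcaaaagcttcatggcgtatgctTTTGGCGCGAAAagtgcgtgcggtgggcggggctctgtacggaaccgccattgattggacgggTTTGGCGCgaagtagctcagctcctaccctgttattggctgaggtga
Cdc6: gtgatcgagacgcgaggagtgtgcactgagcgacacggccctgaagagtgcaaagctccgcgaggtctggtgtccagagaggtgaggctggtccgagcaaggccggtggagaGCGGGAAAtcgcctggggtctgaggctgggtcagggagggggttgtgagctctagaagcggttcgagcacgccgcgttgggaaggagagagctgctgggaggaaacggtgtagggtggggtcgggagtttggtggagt
Pola1: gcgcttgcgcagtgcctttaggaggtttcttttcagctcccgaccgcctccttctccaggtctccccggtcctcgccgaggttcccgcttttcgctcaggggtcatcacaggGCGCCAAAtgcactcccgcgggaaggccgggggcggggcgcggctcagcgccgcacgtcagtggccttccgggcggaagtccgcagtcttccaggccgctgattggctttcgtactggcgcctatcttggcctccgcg

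In Mcm5 the matches lay at positions -153 to -146 and -149 to -142, counted so that -1 is the last base before the start. In Mcm6 they lay at -110 to -103, -106 to -99 and -47 to -40, and in both Cdc6 and Pola1 at -138 to -131. Of the 28 genes, 10 held a match, or 35.7% (exact 95% binomial interval 18.6% to 55.9%). The other 6 were Cdca7, Casp8ap2, Dtl, Ubr7, Pold3 and Clspn. Among all 27025 genes of the table, with regions of the same length, 2.61% held the motif, and among the 7854 of them that passed the count filter described below 5.31% did. Of 45 further replication genes outside the 38, 35 had an entry and 12 of these held the motif (34.3%), against 3 of 47 genes of G2 and mitosis (6.38%). The CCAAT box stood in 71.4% of the 28 regions (exact 95% binomial interval 51.3% to 86.8%) and in 54.3% of the 35 further replication genes (36.6% to 71.2%). It stood in 76.6% of the regions of G2/M genes and in 43.7% of those that passed the filter. The CHR element, searched as TTTGAA or TTCGAA, stood in 21.4% of the 28 and in 20% of the 35. Among G2/M genes 76.6% held it, and among those that passed the filter 16.1%. A match is a string of letters in a window and no measure of binding, and no match says only that these letters are absent from this window.

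**Figure D1:**
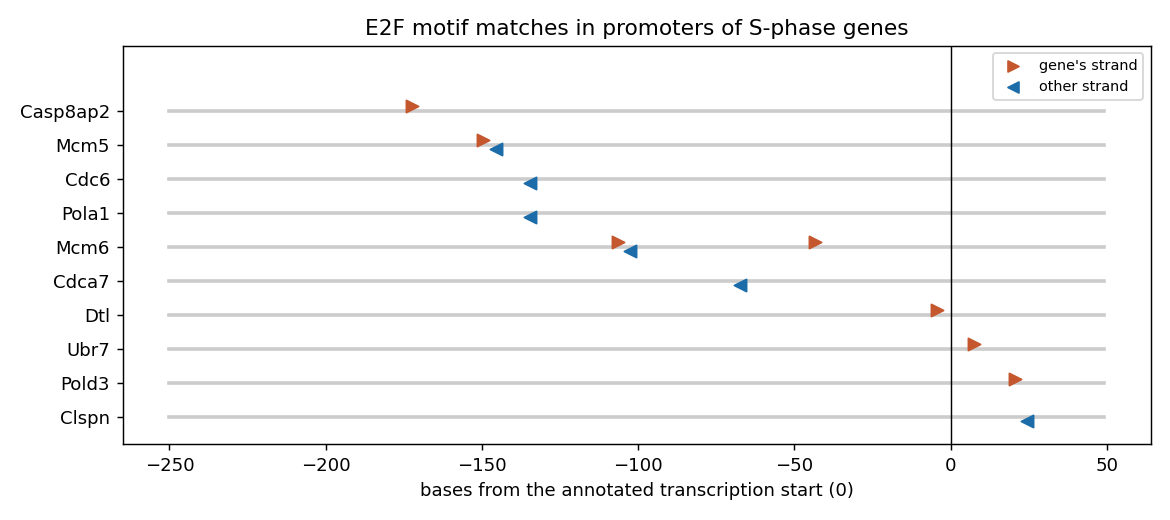
Positions of matches to the E2F motif in the promoters of the 10 S-phase genes that hold one, in bases from the annotated start (0), with arrowheads for the strand of the match and grey bars for the window searched. The matches of Casp8ap2, Mcm5, Cdc6, Pola1, Mcm6, Cdca7 and Dtl lie before the RefSeq start, and those of Ubr7, Pold3 and Clspn after it. That of Cdc6 lies inside the GENCODE gene.

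The cells held 2417702 to 6787261 counts each, with a median of 4244480, and counts for 5317 to 10032 genes. Of 7 ES cell markers, Pou5f1, Sall4 and Lin28a were detected in all 61 cells and Sox2 in 54. Among markers of other cell types, Postn, Elf5 and Sox1 were at 0 in every cell, Gata4 was detected in 2 cells and Col1a1 in 7, whereas Nes was detected in 47 cells, Vim in 44, Eomes in 25, Tfap2c in 23, Cdx2 in 18 and Pax6 in 16. The summed level ran from 0 to 881 CPM for 7 fibroblast markers, to 208 for 6 primitive endoderm markers, to 589 for 5 trophectoderm markers and to 587 for 3 neurectoderm markers, with medians of 25.2, 0, 8.36 and 32.9. The cells in wells G03 and G09 stood apart from the others. Their summed ES marker level was 429 and 1125 CPM (counts scaled to the total of the cell), against a median of 3597. The mitotic topoisomerase gene Top2a was at 0 in both, as in some other cells, and was detected in 57 of the 61. G03 held 213 CPM of the collagen gene Col1a2, whose median was 0. Of other fibroblast markers, G03 held 348 CPM of Vim (median 24.2) but 0.303 of Col1a1 and 0 of Thy1. G09 held 2331 CPM of the cyclin gene Ccnd2, whose median was 24.99. Results that rest on these cells are given with and without them. The labels name no separate cultures, so p-values measure the spread between cells, which may come from 1 culture.

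All 38 genes passed the filter of at least 10 counts in at least 10 cells, which kept 10868 genes. A typical cell held counts for most of them: 25 of the 38 were detected in the cell with the fewest (G09), 34 in the median cell and 38 in cells such as A06. Together they took 0.263% of counts in G09, 0.738% in the median cell and 1.36% in E05. A count of 0 in a cell allows a level of up to 0.442 to 1.24 CPM, depending on its depth (3 counts, counting error only). Levels between genes are compared as RPKM, the CPM divided by the length in kilobases of the longest protein-coding transcript. The choice of length matters: with the length of all exons joined, the median RPKM was more than 1.5 times lower for 18 of the 36 genes with a median above 0.

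Genes of licensing and of the helicase spanned a wide range. Gmnn, which codes for geminin, the inhibitor of licensing, had a median of 274 RPKM, the highest of the 38 with this length and next to Tipin (262) with 211 over joined exons. Its CPM ran from 10.4 through a median of 309 to 803. It was detected in all cells and varied little for its level. The MCM subunits had medians of 74.2 RPKM for Mcm4, 85.1 for Mcm2, 100.4 for Mcm5 and 104 for Mcm6; the remaining subunit genes Mcm7 and Mcm3, outside the 38, had 106 and 158. Over joined exons the medians of the 4 were 74.2, 41.2, 85.0 and 97.4 RPKM, so the place of Mcm2 turns on the length. In CPM, Mcm2 ranged from 0 through 287 to 1174. Mcm4 ranged from 2.33 through 266 to 1032 and Mcm5 from 0 through 340 to 1177. Mcm6 ranged from 0 through 454 to 1382. The cells at 0 were few: Mcm2 and Mcm6 were detected in 60 cells, Mcm5 in 59 and Mcm4 in 61.

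Of the factors that load and start the helicase, Cdc6 and Cdc45 were lower and patchier. Cdc6 ranged from 0 through 24.2 to 772 CPM and was detected in 45 cells. Cdc45 ranged from 0 through 28.6 to 653 CPM and was detected in 40. Their squared coefficients of variation were 3.87 and 3.22 times the trend for their level, the highest ratios of the 38. Gins2, a GINS subunit, had a median of 92.2 CPM in 60 cells, but 67.3% of its exon length overlaps Gse1 on the opposite strand. No source used here says whether strand was used in counting, so reads of Gins2 and Gse1 cannot be told apart.

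At the fork, Tipin, a fork protection factor, stood near the top with a median of 266 RPKM (46.2 through 489 to 2263 CPM). Pcna, the sliding clamp, followed at 154 RPKM, with 41.5 through 234 to 696 CPM, and no cell was without it. A processed copy, Pcna-ps2, carried 21978 counts over all cells against 66869 for Pcna, so reads may be split between them. Rpa2, a subunit of the single-strand binding protein, had a median of 114 RPKM and reached 1601 CPM in its highest cell against 941 in the next. Prim1, the catalytic subunit of primase, had 104 RPKM (42.7 over joined exons), the clamp loader gene Rfc2 had 42.01 and Pola1 had 31.2. Pold3, an accessory subunit of polymerase delta, had 21.3 RPKM. Fen1, the flap endonuclease, had 25.7 RPKM, and 84.2% of its exon length is overlapped by genes on the opposite strand. Clspn, which codes for the checkpoint adaptor claspin, was detected in 41 cells (3.33 RPKM), and the loader gene Dscc1 in 33 (0.802 RPKM).

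All 3 genes of nucleotide supply were well expressed. Tyms, thymidylate synthase, ranged from 19.3 through 226 to 561 CPM and was present in every cell. Rrm1 and Rrm2, the large and small subunits of ribonucleotide reductase, had medians of 362 and 296 CPM, with highest cells at 1204 and 1032. Rrm1 was at 0 in 2 cells and Rrm2 in 4. Among genes of histone supply and chromatin, Nasp, a histone chaperone, was the steadiest of the 38. Its CPM ran from 202 through 632 to 1251, and its squared coefficient of variation was 0.494 times the trend. Slbp, which binds histone messenger RNA, ranged from 0.222 through 185 to 749 CPM, and Atad2, a bromodomain ATPase of chromatin, from 9.77 through 175 to 643. Casp8ap2, a factor in histone messenger RNA processing, had a median of 30.9 RPKM. Cdca7, a partner of the chromatin remodeller Hells, had 45.1 RPKM, and the assembly factor gene Chaf1b had 32.7 and was detected in 45 cells.

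Repair genes were low. Usp1, a deubiquitinase of the crosslink repair pathway, had the highest median of these 6 at 33.3 RPKM. Ung, a uracil glycosylase, ranged from 0 through 47.3 to 270 CPM and was detected in 50 cells. Rad51ap1, a factor of recombination repair, had 17.4 RPKM, the exonuclease gene Exo1 had 12.5 and the helicase gene Blm had 9.97. Brip1, another repair helicase gene, was detected in 25 cells and had a median of 0. Of the cycle control genes, Ccne2, a cyclin E gene, ranged from 0 through 23.5 to 353 CPM in 55 cells with counts. E2f8, a repressor of E2F target genes, was detected in 29 cells and ranged from 0 through 0 to 190 CPM. Ubr7, a putative ubiquitin ligase gene, had 52.7 RPKM, Dtl, an adaptor of a ubiquitin ligase, had 12.9 and Wdr76 had 5.98. Across the 38, the median ratio of the squared coefficient of variation to its trend was 1.61, against 1.41 for all 10868 genes, and 33 of the 38 were above 1, against 68.4% of all genes.

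**Figure D2:**
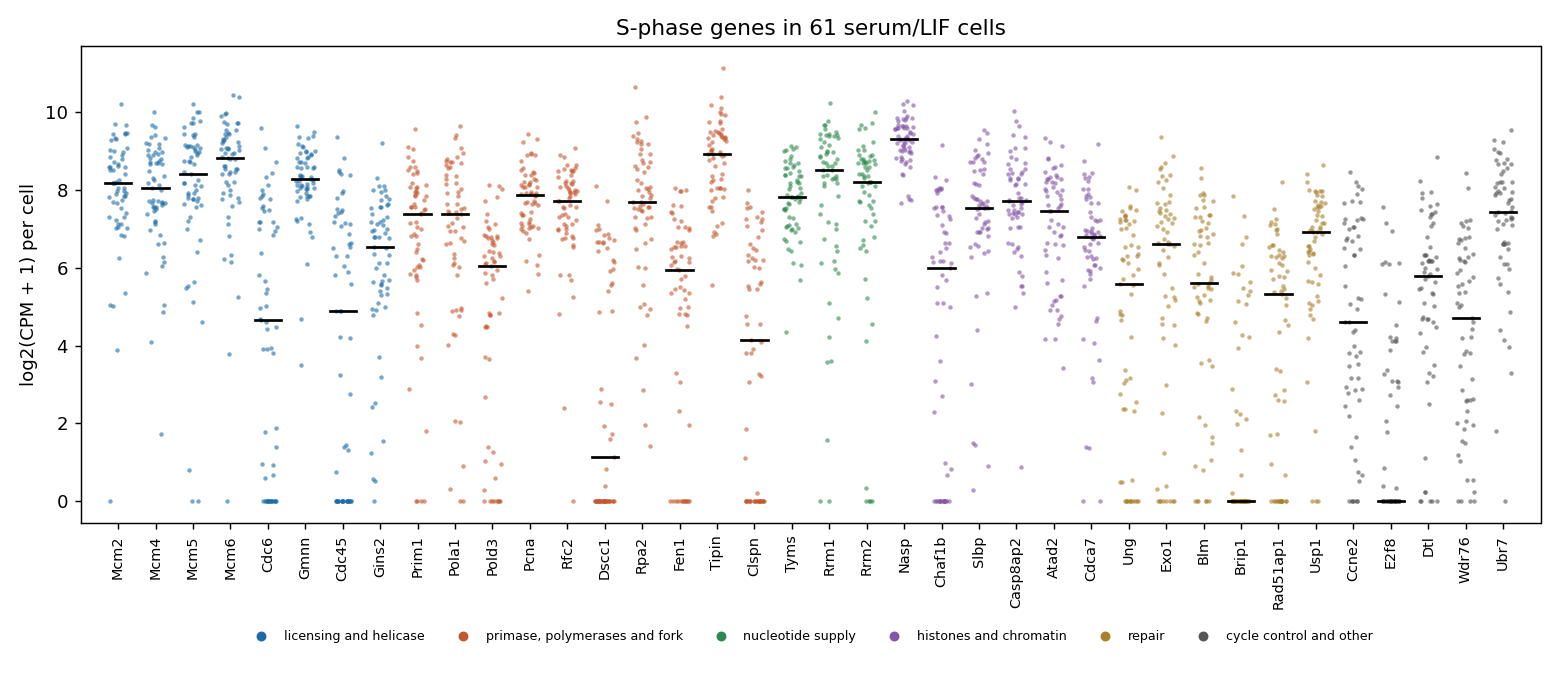
Level of each of the 38 genes in each of 61 cells as log2(CPM + 1), with 1 point per cell, black bars for the medians and colours for roles. Nasp, Tipin and Mcm6 have the highest medians on this scale, which is not per length, and Brip1 and E2f8 have medians at 0.

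The first question was whether these genes vary together from cell to cell, which was described on log2(CPM + 1) values adjusted for the share of genes detected. Over the 703 pairs, the mean Spearman rho was 0.132, with 562 pairs positive and 87 above 0.3. Pairs of other genes were not computed, so no background share stands beside these counts. Set against the mean of the other 37 genes, 36 of the 38 had a positive rho, with a median of 0.323. Of 7809 genes outside the 38, 53.1% had a positive rho with the mean of the 38, with a median of 0.01. These were not matched to the 38 for level. The median was 0.305 without the cells in G03 and G09, 0.276 in the 33 cells of plate rows A to D and 0.358 in the 28 cells of rows E to H. All such values share 61 cells, each with its own library and depth, and are descriptions.

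Clspn (0.658), Slbp (0.642), Mcm4 (0.606), Rrm2 (0.589), Atad2 (0.574) and Gins2 (0.538) lay closest to the rest of the genes. Clspn was at 0 in 20 of the 61 cells, with a median of 16.7 CPM, so cells without counts enter its values. Usp1 (-0.049), Rfc2 (-0.0010), Pold3 (0.027), Ubr7 (0.059) and Mcm6 (0.090) lay farthest, and subunits of the helicase were spread over this order, with Mcm5 at 0.441 and Mcm2 at 0.215. By role, the median was 0.415 for licensing and helicase genes, 0.343 for primase, polymerase and fork genes, 0.304 for nucleotide supply, 0.366 for histones and chromatin, 0.253 for repair and 0.291 for cycle control. The closest pair was Mcm5 and Rpa2 (rho 0.586), followed by Mcm4 and Clspn (0.553), Slbp and Clspn (0.481) and Nasp and Slbp (0.480). At the other end stood Pcna and Mcm2 (-0.360), Rfc2 and Exo1 (-0.325) and Prim1 and Ubr7 (-0.323). The 10 genes with the E2F motif had a median of 0.262 and the 18 whose promoter entry held none 0.298.

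**Figure D3:**
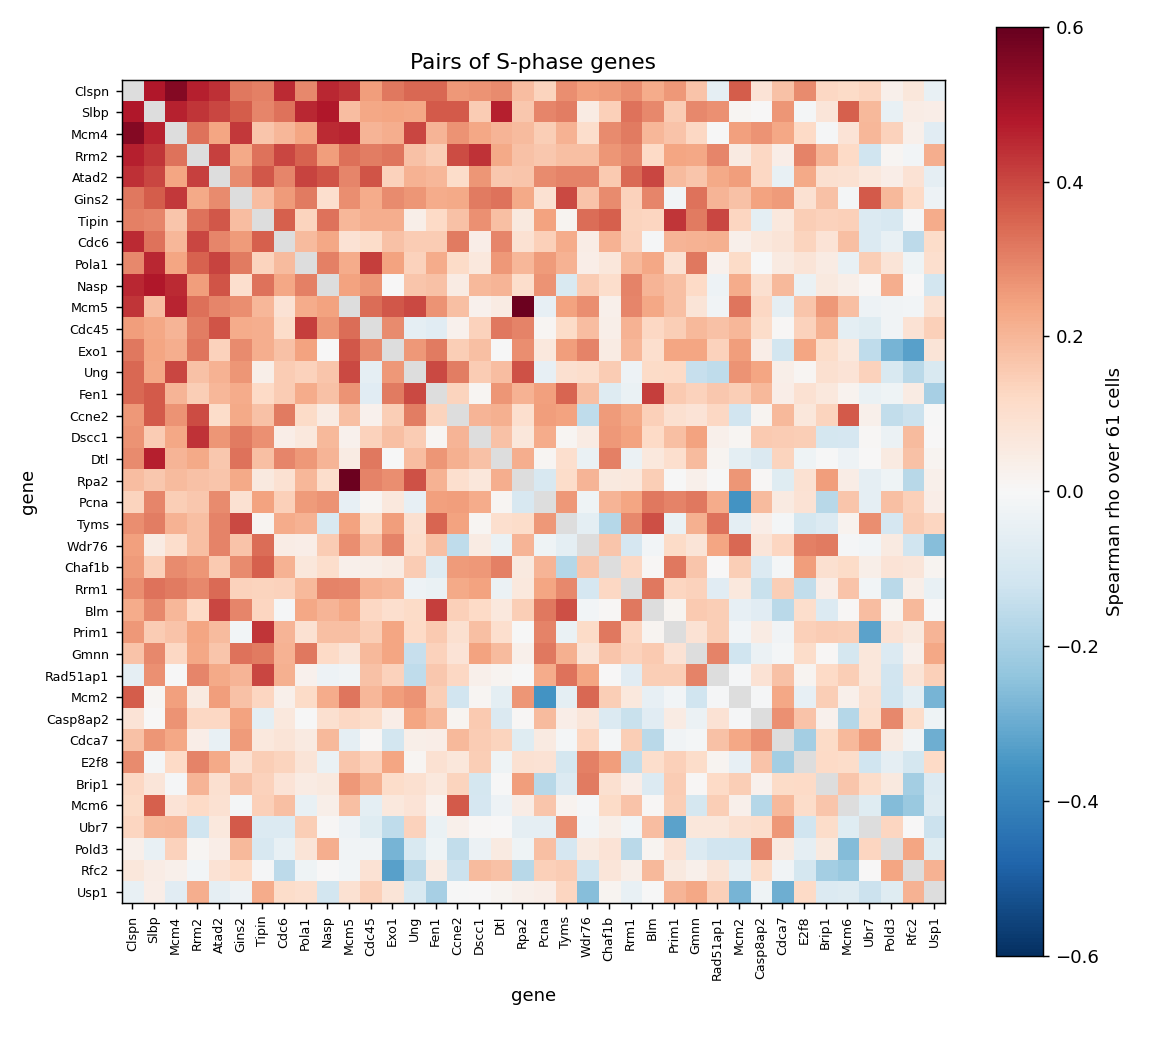
Spearman rho over 61 cells for each pair of the 38 genes, adjusted for the share of genes detected and ordered by rho with the mean of the other genes. Clspn, Slbp and Mcm4 at the upper left are mostly positive with each other and with other genes (Mcm4 and Clspn 0.553), and Rfc2 and Usp1 at the end have values of both signs (Rfc2 and Exo1 -0.325, Rfc2 and Pold3 0.236).

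Genes outside the 38 were ranked by rho with the mean of the 38 among 7809 genes detected in at least 31 cells, whose median rho was 0.01. The 8 highest were the pseudogene Gm8396 (0.599), the exosome nuclease gene Exosc10 (0.585), the centromere gene Cenpk (0.542), Uhrf1 (0.538), which targets maintenance methylation to newly copied DNA, the Ran-binding protein gene Ranbp1 (0.529), the cycle regulator gene Fbxo5 (0.505), the fork repair gene Mms22l (0.502) and the remodeller gene Hells (0.501). Gm8396 lies on chromosome 14, whose share of counts was low in some cells. The 4 lowest were Cep63 (-0.50), Gba2 (-0.44), Sema6a (-0.44) and Cd63-ps (-0.44). Of 43 further replication genes in this ranking, 40 were positive, with a median of 0.259. For 53 G2/M genes the median was 0.03.

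The next question was which genes follow the replication state of a cell as read from other genes. A replication score was formed from the 45 further replication genes, none of which is among the 38, as their mean z-score scaled to an SD of 1. Mcm4, Mcm5 and Atad2 rose with it. In GENCODE M21 on GRCm38 these genes are Mcm4 (chromosome 16, 15623897 to 15637400, minus strand), Mcm5 (chromosome 8, 75109569 to 75128439, plus strand) and Atad2 (chromosome 15, 58094044 to 58135082, minus strand). Mcm4, at 2.33 to 1032 CPM over cells, rose by 0.83 ± 0.17 (SE, 61 cells) on the log2 scale per SD (edgeR quasi-likelihood test, adjusted p = 0.0091). Mcm5 rose by 0.93 ± 0.23 (edgeR adjusted p = 0.0403) and Atad2 by 0.67 ± 0.17 (edgeR adjusted p = 0.0452). These 3 of 38 compare with 61 of 10823 genes tested, or 0.564%, of which 26, or 0.24%, rose. On simulated counts this test made more false calls than its threshold allows, so single calls near it are uncertain.

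The other 35 genes did not pass the adjusted threshold, although most pointed the same way. In all, 36 of the 38 slopes were above 0, against 51.2% of all genes tested, and their median was 0.44 per SD, against 0.01. At an unadjusted p under 0.05 stood 15 of the 38, against 8.89% of all genes. The largest slopes were those of Clspn, 1.83 ± 0.57 (edgeR adjusted p = 0.158), and E2f8, 1.24 ± 0.57 (edgeR adjusted p = 0.479), both at low counts. Pola1 had a slope of 0.75, Slbp one of 0.70, Cdc6 one of 0.68 and Ccne2 one of 0.67. Tyms had 0.28, Mcm2 0.24, Mcm6 0.19 and Gmnn 0.18. Pcna had a slope of 0.33 ± 0.11, Rrm2 one of 0.52 ± 0.26, Rrm1 one of 0.43 ± 0.26 and Ung one of 0.53 ± 0.40. Only Ubr7 (-0.08 ± 0.22) and Brip1 (-0.37 ± 0.57) were below 0.

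The 3 calls rested in part on the cells that stood apart. Mcm5 was at 128 CPM in G03 and 0.748 in G09, Mcm4 at 166 and 32.2, and Atad2 at 29.4 and 50.4, all below their medians. Without these cells edgeR called 0 of the 38, with 9 of 10711 genes called (0.084%), and 13 of the 38 stood at an unadjusted p under 0.05, against 6.58% of all genes. Mcm4 then had a slope of 0.74 (edgeR adjusted p = 0.0642; over all alternatives 4.65e-05 to 1), Mcm5 one of 0.75 (edgeR adjusted p = 0.171; 9.76e-05 to 1) and Atad2 one of 0.58 (edgeR adjusted p = 0.213; 0.00256 to 1), and 35 of 38 slopes were above 0. Within plate rows A to D 30 of 38 slopes were above 0, against 57.9% of all genes, and within rows E to H 35 of 37, against 50.96%. There edgeR called 0 of 9037 and 0 of 7841 genes (0%), with 9 and 8 of the 38 at an unadjusted p under 0.05 against 4.45% and 5.09% of all genes. Over all 61 cells limma-trend called 9 of the 38, against 2.07% of all genes, and DESeq2 called 5, against 1.48%.

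Other lists were set against the same score. By edgeR no gene was called among 29 cycle regulators, 54 G2/M genes, 17 nucleotide synthesis genes, 21 replication stress genes or 13 naive pluripotency genes. Of all genes tested 0.564% were called. At an unadjusted p under 0.05 stood 3, 1, 1, 1 and 6 of them, against 8.89% of all genes. Slopes were above 0 for 32 of the 54 G2/M genes and all 13 naive genes, against 51.2% of all genes. The naive genes had a median slope of 1.65 per SD, against 0.44 for the 38, so a rise with this score was not particular to the 38. The reason was not tested. Among 7 ES cell markers, Pou5f1, the core pluripotency factor, rose by 0.47 ± 0.11 (edgeR adjusted p = 0.0221). Pou5f1 was at 74.1 CPM in G03 and 439 in G09, against a median of 1152. Without these cells its slope was 0.37 (edgeR adjusted p = 0.143; over all alternatives 0.000634 to 1). The share of genes detected was a covariate of the test, since the score itself correlated with it (r = 0.382 over 61 cells).

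**Figure D4:**
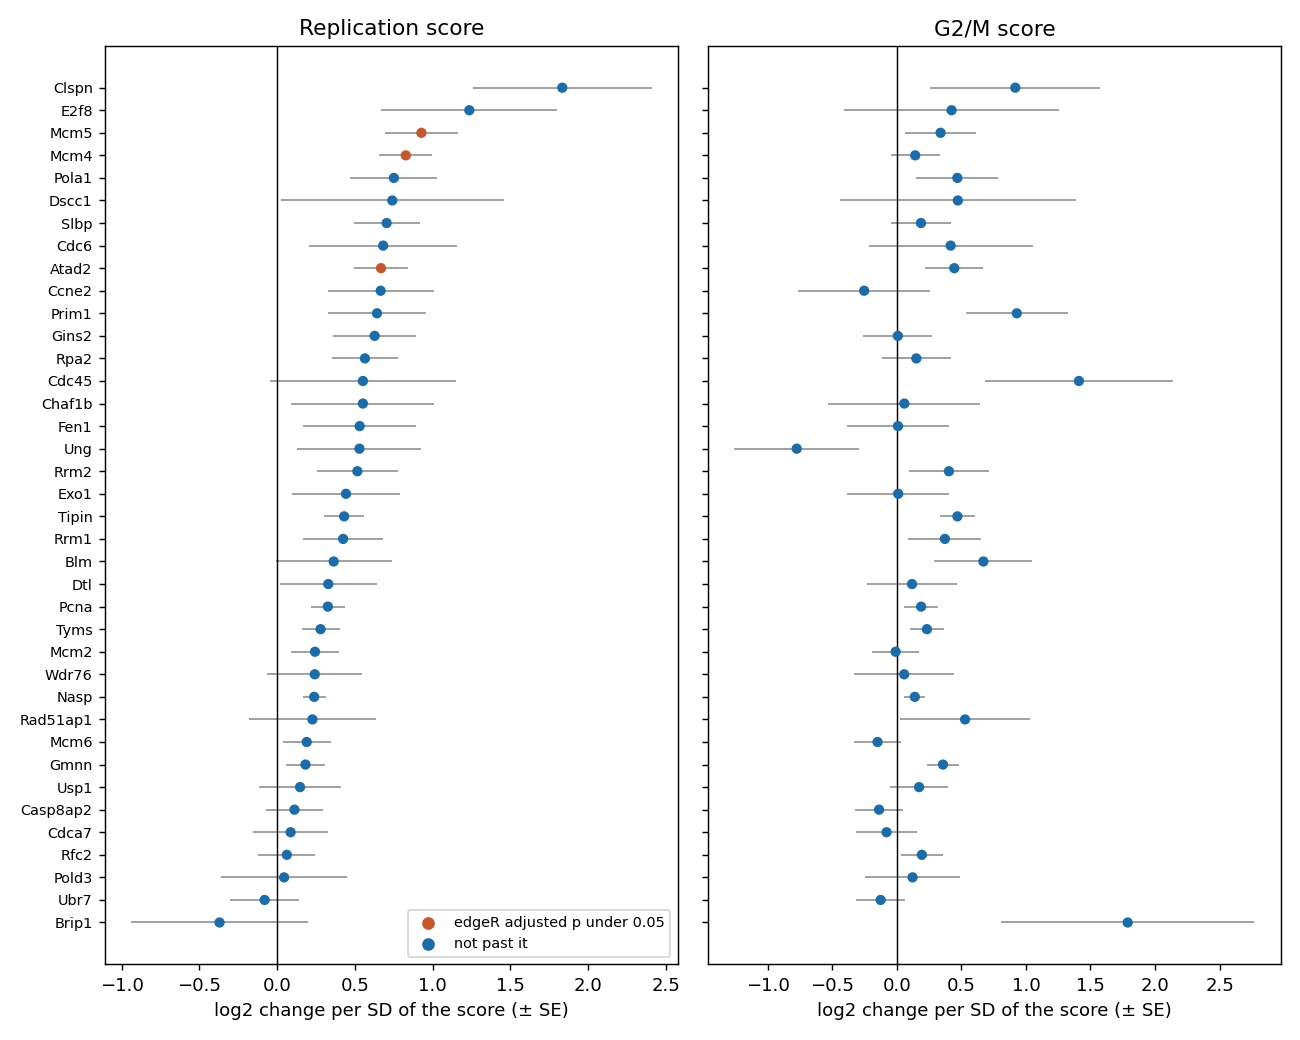
Slope of each of the 38 genes per SD of the replication score (left) and of the G2/M score (right) over 61 cells, in log2 units with bars for ± 1 SE; orange marks an edgeR adjusted p under 0.05. On the left 36 points lie above 0 and Mcm4, Mcm5 and Atad2 pass; on the right 31 lie above 0 and no gene passes.

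The same genes were then set against a G2/M score over 54 genes of G2 and mitosis. None of the 38 was called by edgeR, where 21 of 10814 genes were (0.194%), and 3 stood at an unadjusted p under 0.05, against 5.18% of all genes. By limma-trend 3 were called (0.832% of all genes) and by DESeq2 2 (0.989%). Nearest were Tipin, 0.47 ± 0.13 (edgeR adjusted p = 0.142), Gmnn, 0.36 ± 0.12 (edgeR adjusted p = 0.445), and Prim1, 0.93 ± 0.39 (edgeR adjusted p = 0.776). Cdc45 had a slope of 1.41 ± 0.72 and Ung one of -0.77. In all, 31 of 38 slopes were above 0, with a median of 0.19, against 51.3% of all genes tested. Without the cells in G03 and G09 these were 26 of 38 and 0.095, against 52.9% of all genes, and edgeR called 0 of the 38 and 17 of 10702 genes (0.159%). Of the 45 further replication genes 0 were called, 35 had slopes above 0 and 2 stood at an unadjusted p under 0.05.

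Cell by cell, the mean of the 38 genes and the replication score had a Pearson r of 0.802 and a Spearman rho of 0.755 over 61 cells, both adjusted for genes detected. In plate rows A to D r was 0.736 and in rows E to H 0.843, and without G03 and G09 it was 0.752. Both sides are read from 1 library per cell, so its quality and depth are shared. With the G2/M score, r was 0.399 but rho 0.0428, and r was 0.235 without G03 and G09 and -0.0200 without the 4 cells lowest on that score (G03, G09, B06 and F09), so this relation rested on few cells. With the mitochondrial share of counts r was -0.0909, and with the log2 total count 0.147.

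The cells with the lowest means of the 38 genes were G09 (-3.04 SD), F09, D07 (-2.15), B06 (-1.996) and G03 (-1.64). In G09, Rrm2, Clspn, Cdc6 and Rfc2 were at 0, whereas Mcm2 stood at 634 CPM, above its median. In B06, Slbp was at 0.865 CPM and Rrm1 at 0, whereas Ubr7 had its highest value, 738 CPM. E05 had the highest mean (1.93 SD), with Rrm2 at its highest level of 1032 CPM, Mcm6 at 1382 and Pcna at 601, yet Cdc6 at 0. The means formed a range with no clear break: the largest gap between neighbours was 0.698 SD and the next 0.531.

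**Figure D5:**
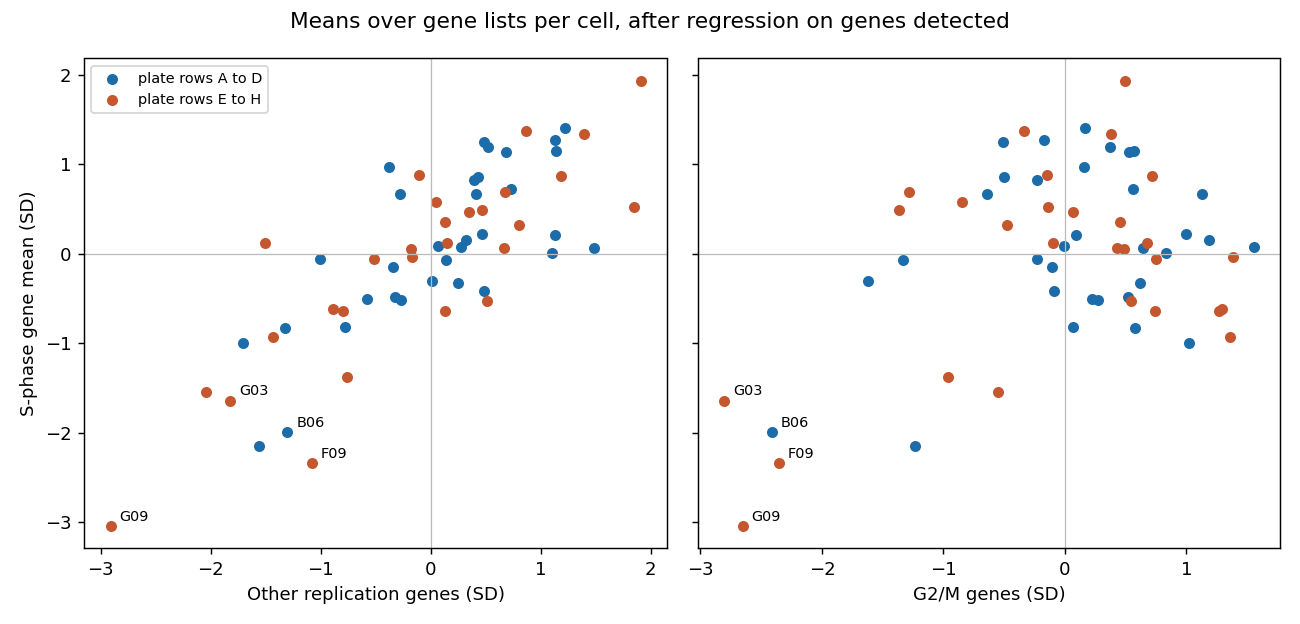
Mean of the 38 S-phase genes in each of 61 cells against the replication score (left) and the G2/M score (right), all in SD and adjusted for genes detected, coloured by plate rows. The cells follow the diagonal on the left, and on the right G03, G09, B06 and F09 lie apart at low values of both.

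Against a score over 13 measured naive pluripotency genes, 0 of the 38 were called by edgeR, where 595 of 10855 genes were (5.48%), and 2 stood at an unadjusted p under 0.05, against 15% of all genes. By limma-trend 4 were called (6.29% of all genes) and by DESeq2 1 (9.49%). Tyms had a slope of -0.29 ± 0.12 and Tipin one of 0.30 ± 0.12, both with an edgeR adjusted p of 0.190, and 19 of 38 slopes were above 0. The mean of the 38 genes had an r of 0.0912 with this score over 61 cells. The labels name no batch but give well names, from which rows A to D and E to H were compared as a grouping made here. Between rows E to H and A to D edgeR called 0 of the 38 and 5 of 10868 genes (0.046%); limma-trend and DESeq2 called 0 of the 38 too, with 0% and 0.166% of all genes. Nasp, at -0.31 ± 0.15, was the 1 gene of the 38 with an unadjusted p under 0.05, against 4.07% of all genes.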

How the data were processed

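The deposited table holds whole-number counts per gene for 61 serum/LIF cells, which the authors made from their reads. G&T-seq separated RNA from DNA and Nextera XT was the library kit, per the labels' protocols. The submitters' processing notes name GSNAP, bedtools 2.19.1, SAMtools 0.1.18, DESeq2 and the GRCm38 build. How reads were counted, with which annotation and whether by strand, is not given in the sources used here. The labels name no molecular identifiers, so limits cover counting error only. The deposited normalized table was not used here.

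The 38 genes, the gene lists and the tests were chosen with earlier results of these data known. By rule, values per cell were given for the members past an adjusted p of 0.05 and 13 chosen for their roles. Ranges over cells for Cdc45, Tipin, Nasp and Slbp, and single cell values of other members, were also given outside this rule. Of other genes, those named by a rule were list genes past 0.05 and the 8 highest and 4 lowest in rho. Cell type markers, Mcm3, Mcm7, Pcna-ps2 and overlapping genes were named as context. Outside any rule, Top2a, Col1a2 and Ccnd2 were given to describe G03 and G09. Symbols were found for 34880 of 36205 identifiers (95 further rows are ERCC spike-ins). RPKM used the longest protein-coding transcript of GENCODE. Scores were mean z-scores of log2(CPM + 1). Genes that reached 10 counts in 10 or more cells, except those of the score, were tested for a slope on a score with the quasi-likelihood test of edgeR 4.0.16 (TMM, Benjamini-Hochberg, share of genes detected as covariate). The SE is approximate, from the slope and its F. When tested on simulated data, edgeR gave more false calls than the adjusted threshold allows, which bears on each call printed. A gene counted as holding a motif if any of its promoter entries did. Alternatives were RLE scaling, filters, limma-trend 3.58.1, DESeq2 1.42.0, other covariates, thinned counts and subsets of cells; leaving out the 7 cells with least chromosome 14 counts, or G03 and G09, was added after the data were seen.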

Additional observations from a re-analysis of the deposited data

Results flagged for a closer look

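The table also holds 95 ERCC spike-in names, which no comparison used. Summed over all 95, they held at most 4 counts in a cell. With so few counts, spike-ins could not serve to measure the RNA content of a cell.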

How the results depend on the processing

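On the replication score, 61 genes and 3 of the 38 S-phase genes passed. All genes called numbered 224 with limma-trend, 160 with DESeq2, 3719 with no filter, 20 with the stricter filter, 12 with no covariate, 37 without the 2 cells farthest from the median of the score (B10 and G09), 40 without the 7 cells with the least chromosome 14 counts, 9 without G03 and G09, and 0 in rows A to D or E to H alone. Of the 38 genes, edgeR called 1 with RLE scaling (0.471% of all genes tested), 8 with no filter (17.5%) and 0 with no covariate (0.111%). Limma-trend called 9 (2.07%) and DESeq2 5 (1.48%). Without B10 and G09 1 was called (0.344%), and without G03 and G09 0 (0.084%). In rows A to D or E to H alone 0 were called (0%), and with the G2/M score in the model 1 (0.529%). On the G2/M score 2 were called with no filter (14.5% of all genes tested), 3 with limma-trend (0.832%) and 2 with DESeq2 (0.989%). On the naive score 4 were called with limma-trend (6.29% of all genes tested) and 1 with DESeq2 (9.49%). There edgeR called 1 with no covariate (5.87%) and 1 without D05 and H10, the farthest cells on that score (3.85%). With a motif of 7 bases (the first T left out) 71.4% of the 28 promoters held a match, against 21.3% of those of genes that passed the filter.

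Of 740 slopes of named genes under the alternatives, 678 kept their sign and side of the threshold, 23 lost a call, 25 gained one and 14 changed sign. Those on the replication score in plate rows A to D were Cdca7 (-0.042), Rfc2 (-0.062), Rad51ap1 (-0.30), Pold3 (-0.17), Cdc45 (-0.23) and Casp8ap2 (-0.13), and in rows E to H Usp1 (-0.14). Rfc2 was at -0.020 without B10 and G09 and -0.011 with the G2/M score in the model. Pold3 was at -0.10 with RLE scaling, -0.055 with DESeq2 and -0.026 without G03 and G09, and with limma-trend Ubr7 was at 0.10 and Brip1 at 0.24. The cause was not tested. Mcm4 passed under 12 of 16 alternatives, Mcm5 under 9 and Atad2 under 4. The stricter filter left no value for Dscc1, Brip1 and E2f8, and rows E to H none for Brip1. The median rho of a gene with the others ran from 0.276 to 0.358. No paired analysis was possible because the cells form 1 group whose numbers follow accession order. Low counts limit what can be read for Brip1, E2f8, Dscc1, Clspn and Cdc45.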

Other observations

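Lists next to replication were also measured. Of 18 genes of nucleotide synthesis detected in at least 31 cells, 13 had a positive rho with the mean of the 38 S-phase genes (median 0.142), and of 17 replication stress and damage genes 11 did (median 0.0795), against 53.1% and a median of 0.01 for all 7809 genes ranked. Of 26 cycle regulators 17 did, with a median of 0.0981.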
